A study of Mus musculus with 12 samples.

Results

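The interstitial matrix genes described here are Col1a1, Col1a2, Col3a1, Col5a1, Col5a2, Postn, Lum, Dcn, Lox and Fbn1. These 10 genes were chosen by symbol from a list of genes known for high expression in fibroblasts. The choice was made with earlier results of these data known, so counts over the 10 genes are descriptions. The set is 10 of 45801 genes listed in at least 1 of the study's 2 result tables, and all 10 are in both tables. The study profiled RNA from mouse blastocysts (preimplantation embryos) and from mouse embryonic stem (ES) cells, with or without Dis3l, the gene for an RNA-degrading subunit of the exosome in the cytoplasm. The labels list 3 Dis3L WT and 3 Dis3L KO samples of each material, 12 in all. Per the labels' protocols, embryos were collected 96 h after hCG from females given PMSG and hCG, and each blastocyst library came from a single embryo by tagmentation with Tn5. ES cell lines were derived and kept on inactivated mouse embryonic fibroblasts (MEFs) in medium with 500 IU/ml LIF, and their RNA was depleted of ribosomal RNA for stranded libraries. The labels give no strain, allele design, sex or number of lines, and they do not say whether feeder cells were removed before lysis. In such bulk RNA, fewer cells of a type and less RNA per cell cannot be told apart.

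Interstitial matrix is the fibre network that fibroblasts lay down between cells. Fibrillar collagens are secreted as procollagen chains, trimmed and assembled into fibrils, and cross-linked by lysyl oxidase. Small leucine-rich proteoglycans sit on the fibrils, fibrillin forms separate microfibrils that bind latent TGF-beta complexes, and matricellular proteins link the parts. Pluripotent cells and early embryos are not known as a main source of this network, whereas MEFs secrete it abundantly in culture.

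Neither table holds a value per sample, and neither says which genotype is the numerator. The authors' mean of each gene was therefore solved for the whole reads behind it, which gave 4 count columns for ES cells, 2 on each side of the comparison, and 6 for blastocysts, 3 on each side. The labels list 6 ES cell samples, so the 4 columns do not match them in number. Columns are called positive-side or negative-side by the sign of the deposited log2 fold change they go with, and none was assigned to a sample or a genotype. Relative depths (size factors) were 0.759 to 1.25 in ES cells, where the columns held 631863 to 1036406 reads in the 12137 genes with a mean below 350, and 0.695 to 1.62 in blastocysts. The targeted gene, Dis3l, had 14 and 8 ES cell reads on the positive side against 39 and 39. Its adjusted p-value in the authors' deposited table (DESeq2 Wald test) was 0.445. Blastocyst reads of Dis3l were 26, 8 and 0 (positive side) against 10, 4 and 8, so the targeted gene did not separate the sides there.

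In ES cells every one of the 10 genes had its highest normalised level in 1 column, negative-side column 2, and 9 of the 10 were at least 2-fold above the mean of the other 3 columns there. Among tested genes with solved reads, 30.3% were highest in that column and 3.87% were at least 2-fold higher. Added over the 10 genes, the normalised reads were 932 in positive-side column 1, 816 in positive-side column 2, 912 in negative-side column 1 and 2969 in negative-side column 2. The last is 3.35-fold the mean of the others, which differed among themselves by 1.14-fold from lowest to highest. Without Col3a1 and Postn, the genes that stood out most, the summed level in negative-side column 2 was still 2.39-fold the mean of the others. The columns on 1 side therefore differed from each other more than the sides did, and the labels give nothing that tells these columns apart.

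**Figure D1:**
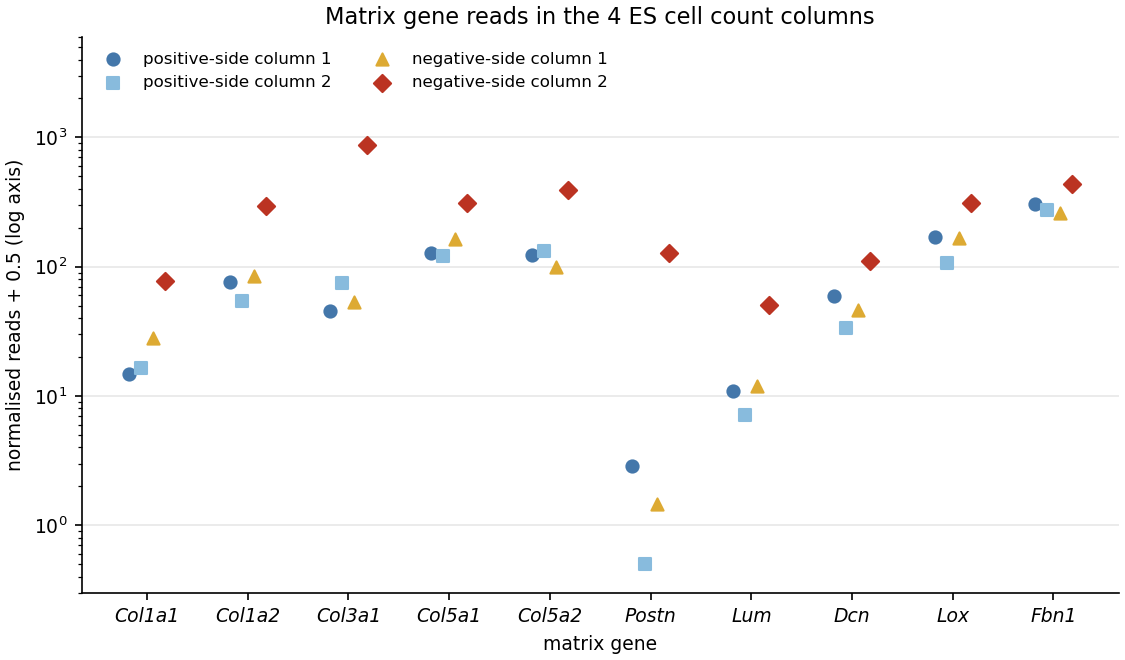
Normalised reads plus 0.5 (log axis) of the 10 matrix genes (horizontal axis) in the 4 ES cell count columns, 1 point per column, with no error bars because each point is 1 column. The diamond of negative-side column 2 is the highest point for all 10 genes, and it stands farthest from the others for Postn (127, where the other columns held 4 unnormalised reads in all) and Col3a1 (865 against 44.7 to 73.7).

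Collagen III and periostin differed most between columns. Col3a1 encodes the chain of type III collagen, a fibril former of loose connective tissue, and lies on chromosome 1 from 45311538 to 45349706 (GRCm38, plus strand). Its reads were 56 in positive-side column 1, 56 in positive-side column 2, 56 in negative-side column 1 and 895 in negative-side column 2. After normalisation these were 44.7, 73.7, 53.2 and 865, so negative-side column 1 lay between the positive-side columns and only negative-side column 2 was apart, 15.1-fold above the mean of the others. The authors' deposited table gave Col3a1 a log2 fold change of −0.37 (standard error 0.24), with an adjusted p-value of 1.00 by the DESeq2 Wald test.

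Postn encodes periostin, a matricellular protein that binds collagen and promotes its cross-linking, and lies on chromosome 3 from 54361109 to 54391037 (plus strand). It had 3 reads in positive-side column 1, 0 in positive-side column 2, 1 in negative-side column 1 and 131 in negative-side column 2. Nearly all of its reads thus came from a single column. Pooled over the other columns, which held 4 reads, the depth-adjusted ratio was 97.0, with an exact 95% counting interval of 37.0 to 361. Against positive-side column 2, which held 0 reads, a floor of 3 reads in that column gives a ratio of 32.0 for negative-side column 2. This ratio leaves out the counting error of the 131 reads. In the authors' deposited table the log2 fold change was −0.14 (standard error 0.14), whereas the log2 ratio of the reads was −5.24. Genes were ranked by their level in negative-side column 2 over the mean of the other columns, after these values had been seen. Among the 7602 ES cell genes with solved reads and a mean of at least 30, Postn ranked 1 and Col3a1 ranked 2. Postn, with a mean of 32.5, passed that limit only through negative-side column 2, so its rank is partly built in.

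The sequence before the start sites of Postn and Col3a1 is shown, beside that of Col5a1, a gene with a smaller excess in negative-side column 2. A link between these sequences and the difference between columns was not tested. Each is the 250 bases upstream of the annotated start, from RefSeq on GRCm38.p6, plus strand, with TATAAA in capitals. Entries were found for 5 of the 10 genes, and these 3 are the ones whose window holds no annotated exon.
Postn, chr3:54360857-54361106: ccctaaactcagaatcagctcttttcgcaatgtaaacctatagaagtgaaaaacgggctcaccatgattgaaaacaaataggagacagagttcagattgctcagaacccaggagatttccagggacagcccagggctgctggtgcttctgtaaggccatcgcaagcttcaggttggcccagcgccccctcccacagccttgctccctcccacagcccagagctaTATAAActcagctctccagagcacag
Col3a1, chr1:45311288-45311537: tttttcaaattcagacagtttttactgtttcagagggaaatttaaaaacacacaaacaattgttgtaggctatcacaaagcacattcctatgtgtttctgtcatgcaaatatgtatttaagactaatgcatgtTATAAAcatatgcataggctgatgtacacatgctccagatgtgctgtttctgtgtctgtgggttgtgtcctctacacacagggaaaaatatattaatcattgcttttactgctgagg
Col5a1, chr2:27886175-27886424: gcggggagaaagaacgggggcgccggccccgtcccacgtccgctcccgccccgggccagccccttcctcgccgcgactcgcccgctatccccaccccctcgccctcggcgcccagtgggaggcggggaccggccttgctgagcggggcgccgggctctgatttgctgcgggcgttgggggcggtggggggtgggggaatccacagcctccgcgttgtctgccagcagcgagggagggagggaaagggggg
A TATAAA match, searched on both strands as were the other motifs, was present in 2 of the 5 windows, 26 bases before the start of Postn and 117 before that of Col3a1, and in 12.4% of 32851 promoter windows of the same length. GGGCGG was found for Col1a2, Col5a1 and Fbn1 and in 32.7% of all windows. The windows of Col1a2 and Fbn1 hold annotated exons, and their start sites lie 804 and 1555 bases inside the annotated genes. CCAAT was found for Col1a2 alone and in 33.8% of all windows, and TGANTCA, the AP-1 motif, for 0 of the 5 and in 6.75% of all windows. The Postn and Col3a1 windows contained 52.0% and 35.2% G and C, that of Col5a1 76.4%, and the median over all windows was 52.4%. A match describes the letters of the window and shows no binding.

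The chains of type I collagen, the main collagen of skin, tendon and bone, kept their ratio within counting error across columns. Col1a1 (chromosome 11, 94936224 to 94953042, plus strand), the alpha 1 chain, had 18 and 12 reads on the positive side against 29 and 80. Normalised, these were 14.4 and 15.8 against 27.6 and 77.3, so the sides did not overlap for this gene. Col1a2 (chromosome 6, 4504814 to 4541544, plus strand), the alpha 2 chain, had 95 and 41 reads against 89 and 304, or 75.8 and 54.0 against 84.6 and 294 normalised. Its sides did not overlap either, although negative-side column 1 was close to positive-side column 1. Negative-side column 2 was 4.02-fold above the mean of the other columns for Col1a1 and 4.11-fold for Col1a2. Per kilobase of transcript, Col1a1 stood at 0.171, 0.264, 0.294 and 0.237 of Col1a2 in positive-side columns 1 and 2 and negative-side columns 1 and 2. The exact 95% counting intervals of these ratios, from 0.0971 to 0.512 in all, overlapped between every pair of columns.

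Type V collagen, which is built into type I fibrils and limits their width, differed less between columns. Col5a1 (chromosome 2, 27886425 to 28039514, plus strand) had 158 and 92 reads on the positive side against 172 and 320. Normalised, 126 and 121 stood against 164 and 309, so the sides did not overlap. Col5a2 (chromosome 1, 45374321 to 45503282, minus strand) had 153 and 100 reads against 104 and 408, or 122 and 132 against 98.9 and 394 normalised. Here negative-side column 1 was the lowest of the 4 and negative-side column 2 the highest, so the sides overlapped. Col5a1 was 0.618 of Col5a2 per kilobase in negative-side column 2 (exact 95% counting interval 0.532 to 0.717) and 1.30 in negative-side column 1 (1.02 to 1.68). Col5a2 and Col3a1 are neighbours on opposite strands, 24.6 kb apart, but Col5a2 was 3.35-fold higher in negative-side column 2 where Col3a1 was 15.1-fold higher.

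The small proteoglycans that coat fibrils, lumican and decorin, are also neighbours, on chromosome 10 and 47.0 kb apart. Lum (97565128 to 97572703, plus strand), lumican, had the lowest mean of the 10 genes, with 13 and 5 reads on the positive side against 12 and 52. Normalised, 10.4 and 6.58 stood against 11.4 and 50.2, and negative-side column 1 was barely above positive-side column 1. Dcn (97479609 to 97518143, plus strand), decorin, had 74 and 25 reads against 48 and 113, or 59.1 and 32.9 against 45.6 and 109 normalised. Its sides overlapped, since negative-side column 1 lay between the positive-side columns. Per kilobase, Lum was 0.126, 0.144, 0.180 and 0.330 of Dcn in positive-side columns 1 and 2 and negative-side columns 1 and 2. The counting interval of the last, 0.233 to 0.463, overlapped those of positive-side column 2 and negative-side column 1 and lay just above that of positive-side column 1 (0.0642 to 0.229).

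Lox and Fbn1 had the smallest excess in negative-side column 2. Lox (chromosome 18, 52516069 to 52529867, minus strand) encodes lysyl oxidase, the enzyme that starts collagen and elastin cross-links, and had 212 and 81 reads on the positive side against 175 and 320. Normalised, 169 and 107 stood against 166 and 309, a 2.10-fold level in negative-side column 2 against the others, with overlapping sides. Fbn1 (chromosome 2, 125300594 to 125507993, minus strand) encodes fibrillin-1, the main protein of microfibrils, and had the highest mean of the 10 genes. Its reads were 385 and 208 against 273 and 450, or 307 and 274 against 260 and 435 normalised, so negative-side column 1 was the lowest and negative-side column 2 the highest, 1.55-fold above the others. The antisense protein-coding gene Gm9913 shares 2442 bases, 20.1%, of the Fbn1 exons, and whether counting used strand is not given in the sources used here, so those reads are uncertain.

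Relative to Col1a2, the proportions of Col3a1 and Lox, picked after their values were seen, varied between columns. Col3a1 per kilobase was 0.567, 1.31 and 0.605 of Col1a2 in positive-side columns 1 and 2 and negative-side column 1, and 2.83 in negative-side column 2 (exact 95% counting interval 2.48 to 3.23). Lox went the other way, with 2.52, 2.23 and 2.22 in the first 3 columns and 1.19 in negative-side column 2 (1.01 to 1.39). The last interval overlapped none of the other 3 for either gene. For Col3a1 the interval of positive-side column 2, 0.862 to 2.01, also lay above those of positive-side column 1 (0.400 to 0.796) and negative-side column 1 (0.425 to 0.854). These intervals cover counting error only, so they do not show whether the columns differ by more than replicate libraries do.

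**Figure D2:**
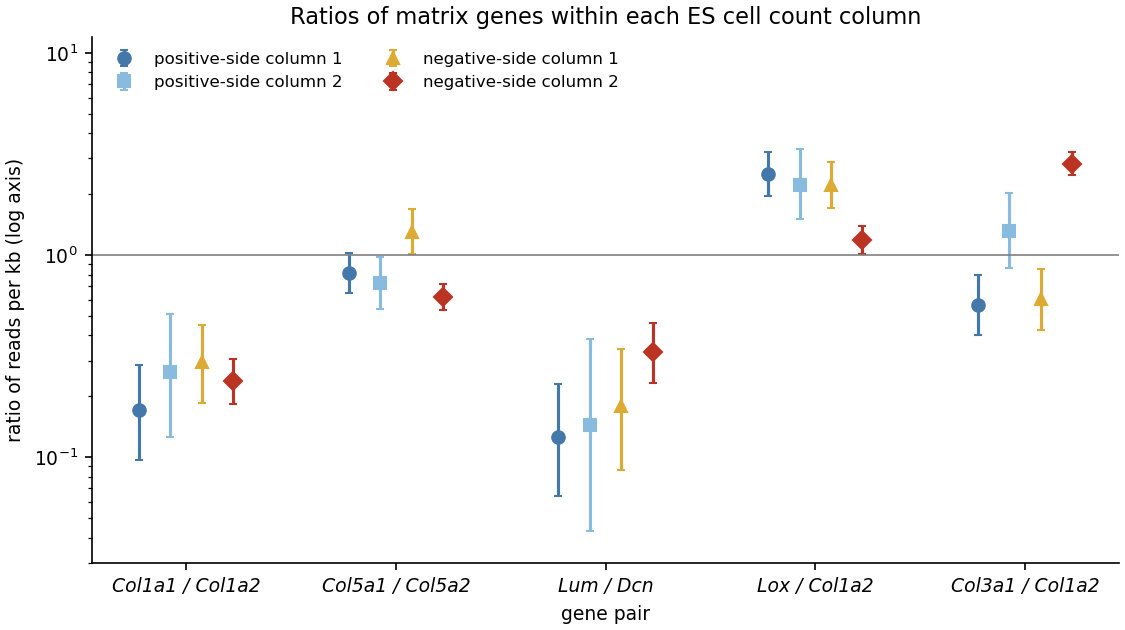
Ratio of reads per kilobase of transcript (log axis) for 5 pairs of matrix genes in each of the 4 ES cell count columns, with bars for the exact 95% counting interval. Col1a1 over Col1a2 stayed between 0.171 and 0.294, while Col3a1 over Col1a2 reached 2.83 in negative-side column 2 and Lox over Col1a2 was lowest there at 1.19.

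The order of the genes also differed between columns. Per kilobase of the longest protein-coding transcript, the mean normalised level over the 4 columns ran from Col3a1 (46.6) through Lox (39.6), Dcn (35.1), Col5a2 (28.2), Fbn1 (26.6), Col1a2 (23.8), Col5a1 (21.4), Postn (10.1) and Lum (8.03) to Col1a1 (5.69). The ranges over columns overlapped in all 9 pairs of neighbours in this order, but the genes share the same columns. Lox stood above Dcn in each column, the closest being 65.2 against 62.1 in negative-side column 2. Lum stood above Col1a1 in each, though by little in positive-side column 2 (2.69 against 2.66) and negative-side column 1 (4.66 against 4.65). The other pairs changed order between columns. Col3a1 led only through negative-side column 2, where it stood at 155 per kilobase. In the other columns it was at 8.04 to 13.3 and ranked 6 or 7 of 10. Postn ranked 10 in each of those columns, at 0 to 0.747 per kilobase, and 6 in negative-side column 2, at 39.5. Measured over all annotated exons instead, the order changed: Lox led with 39.3 per kilobase, Col3a1 fell to 26.4, Dcn to 10.6, Col1a2 to 10.2 and Postn to 3.73. The sizes of the ratios between genes given above depend on this choice too. Over all exons Lum stood at 8.03 against 10.6 for Dcn and Col1a1 at 5.14 against 10.2 for Col1a2. Col5a1, at 21.2, then stood above Col5a2, at 19.5, and not below it. How a ratio compares between columns does not depend on the length used.

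In the comparison between the sides, the authors' deposited table called 0 of the 10 genes in ES cells, with the DESeq2 Wald test and a threshold of 0.05 on the adjusted p-value, where 0.261% of 10739 tested genes passed. The lowest adjusted p-value in the authors' deposited table was 0.378, for Col1a1. All 10 deposited log2 fold changes were negative, against 50.0% of tested genes, and their median was −0.51 against 0.00 over all tested genes. The sign was not particular to them, since 10 of 10 pluripotent cell markers (median −0.24) and 7 of 9 basement membrane genes (median −0.45) were negative too. Unadjusted p-values under 0.05 were found for 4 genes, all negative, where 5.62% of tested genes had such a value in either direction and 3.42% with a negative sign. In the authors' deposited table these were Col1a1 (log2 fold change −0.92, standard error 0.33, p = 0.00560), Col5a1 (−0.72, 0.28, p = 0.00886), Lum (−0.70, 0.32, p = 0.0322) and Lox (−0.59, 0.28, p = 0.0364). The sides lay fully apart for 4 genes, Col1a1, Col1a2, Col5a1 and Lum, where 20.3% of tested genes lay apart in that direction. This was not particular to them. Among related lists, counted over tested genes with solved reads, 6 of 10 TGF-beta pathway, 5 of 8 basement membrane and 7 of 20 collagen processing genes lay apart so. Among fibroblast cell markers 1 of 17 did, and among matrix turnover genes 0 of 10.

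The median log2 ratio of the reads was −1.25 for the 10 genes, and −0.13 without negative-side column 2. Without that column 5 of the 10 ratios were negative and 5 positive. Col1a1 then had the largest negative ratio, −0.85, followed by Lum (−0.41), Col5a1 (−0.40), Col1a2 (−0.38) and Lox (−0.27). Postn, Col3a1, Col5a2, Fbn1 and Dcn had 0.23, 0.15, 0.36, 0.16 and 0.011. The deposited ES cell log2 fold changes understated the ratios of the reads most for Postn and Col3a1, the genes with the greatest spread between columns of 1 side. The largest standard error in that table was 0.332, a ceiling taken here as a mark of fold changes shrunken towards 0.

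**Figure D3:**
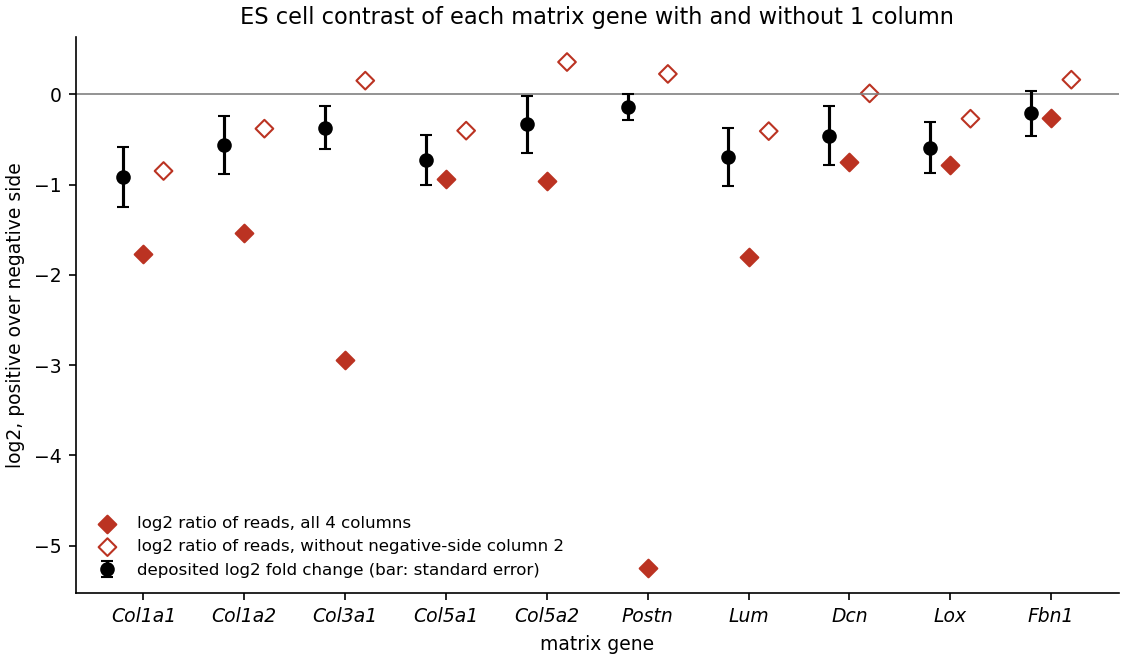
Log2 difference between the positive and the negative side in ES cells for each matrix gene: the deposited log2 fold change with its standard error (black points and bars), the log2 ratio of the reads over all 4 columns (filled diamonds) and without negative-side column 2 (open diamonds). All 10 filled diamonds lie below 0, down to −5.24 for Postn, while the open diamonds lie between −0.85 and 0.36, 5 on each side of 0.

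The label of these genes, matrix genes that follow feeder fibroblast RNA, was checked against 21 fibroblast markers that are not matrix proteins, of which 20 were listed in ES cells and Snai2 was not. Fibroblast marker reads were present in every column, and their summed normalised level was 2354 and 1945 in the positive-side columns, 1969 in negative-side column 1 and 1749 in negative-side column 2. Negative-side column 2, where the matrix genes were 3.35-fold higher, was thus at 0.837 of the mean of the others for these markers. Of the 20, 4 were at their highest there, 0 were at least 2-fold higher, 12 were below the mean of the others and 7 were at their lowest. Of the 17 tested markers, 3 were highest there and 0 at least 2-fold higher, against 30.3% and 3.87% of tested genes with solved reads. A count of 0 past 2-fold is thus near the general share. The median log2 excess was −0.18 for the 20 markers and −0.01 over all tested genes. Vim, an intermediate filament gene also expressed outside fibroblasts, had 659, 496, 561 and 452 normalised reads in positive-side columns 1 and 2 and negative-side columns 1 and 2. S100a6, a calcium-binding protein gene, had 287, 279, 251 and 140 in the same order, and Lgals1, encoding galectin-1, had 246, 184, 255 and 153. Chosen after their values were seen, the mesenchymal genes Pdgfra and Prrx1 had 96.6, 96.1, 80.8 and 85.0 and 151, 157, 124 and 167. Of these markers, Cald1 and Pdgfrb had the largest excess in negative-side column 2, 1.87-fold and 1.71-fold above the others. Cald1, a smooth muscle and fibroblast actin-binding protein gene, and Pdgfrb, a growth factor receptor gene, were also singled out after their values were seen. The matrix genes therefore did not follow these fibroblast markers as a set across the columns. The markers are not confined to fibroblasts. In blastocysts 11 of the 21 had a mean above 0, among them Lgals1 (1849), Pdgfra (480) and Vim (68.9), and 10 had a mean of 0. Whether the matrix gene reads came from feeder cells was not tested, so the matrix genes are called here by their own names and not as a measure of feeder cells.

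**Figure D4:**
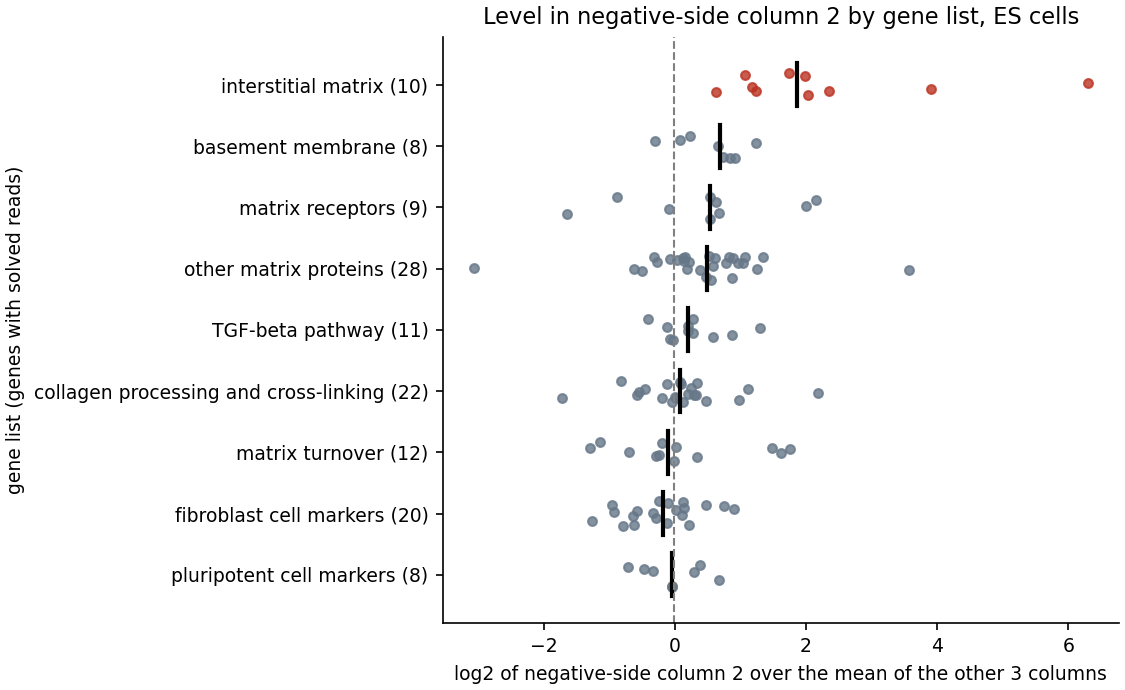
Level in negative-side column 2 over the mean of the other 3 ES cell columns (log2, horizontal axis) for the genes of 9 lists with solved reads, 1 point per gene, with the number of genes in brackets and the median as a black bar. The dashed line is the median over all tested genes, −0.01. All 10 interstitial matrix genes lie right of it with a median of 1.86, whereas the 20 fibroblast cell markers have a median of −0.18.

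Genes of related function were counted in the same way, with 0.5 normalised reads added to both levels, and neither of the authors' deposited tables called any gene of these lists at the 0.05 threshold (DESeq2 Wald test, 0 genes). Counts are over tested genes with solved reads, of which 3.87% were at least 2-fold higher in negative-side column 2, and medians of the log2 excess there are over all genes of a list with solved reads. Of other matrix proteins 4 of 25 passed 2-fold, with a median of 0.49, against −0.01 over all tested genes. The 3 with the highest means were Thbs1 and Fn1, whose means were too high to solve, and Tnc, encoding tenascin-C of remodelling matrix. Tnc had 540, 448, 547 and 1052 normalised reads, a 2.06-fold excess in negative-side column 2, and the authors' deposited table gave it an unadjusted p of 0.0251 (adjusted p-value 0.717, DESeq2 Wald test). The others past 2-fold, named after their values were seen, were Fbln5, Col8a1 and Ltbp2. Of basement membrane genes, which form the sheet under epithelia, 1 of 8 passed 2-fold, with a median of 0.69. That gene was Col4a1, a chain of type IV collagen, singled out in the same way, with 87.8, 105, 133 and 256 normalised reads. Of the 3 highest means of that list, Lamc1 could not be solved and Nid2, encoding nidogen-2, had 550, 407, 566 and 594. Lama5, a laminin chain gene, had 591, 740, 1007 and 1397, so both positive-side columns lay below both negative-side columns. Unadjusted p-values under 0.05 in the authors' deposited table were found for 4 of the 9 basement membrane genes, all negative.

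The enzymes and chaperones that make collagen were counted next. Of 20 collagen processing and cross-linking genes, 1 was at least 2-fold higher in negative-side column 2, Loxl4, with a list median of 0.08. This gene and those past 2-fold in the lists that follow are also named after their values were seen. P4hb, a subunit of prolyl hydroxylase, had 374, 361, 431 and 475 normalised reads. Serpinh1, the collagen chaperone, had 224, 149, 297 and 223, and Colgalt1, a collagen galactosyltransferase gene, 174, 203, 242 and 217. Serpinh1 and Colgalt1 were thus highest in negative-side column 1 and not in the column where the collagens were highest.

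Matrix receptors had a median of 0.54 with 1 of 8 past 2-fold, Itgb3. The integrin chain gene Itgb1 had 475, 413, 457 and 719 normalised reads, Itgb5 had 215, 208, 242 and 209, and Itgav had 159, 217, 203 and 281. Itgb1 and Itgav were highest in negative-side column 2 and Itgb5 was not. Matrix turnover genes had a median of −0.11, with 1 of 10 past 2-fold, Mmp2. The collagenase gene Mmp13 had 465, 439, 445 and 380 normalised reads and the protease gene Ctsl 390, 529, 463 and 403, both without an excess in negative-side column 2, and the mean of Mmp3, the highest of that list, could not be solved. In the TGF-beta pathway, which drives collagen genes in fibroblasts, 1 of 10 passed 2-fold, Tgfb2, and the median was 0.20. The inhibitor gene Smad7 had 184, 115, 198 and 200 normalised reads, and the receptor gene Tgfbr1 had 176, 155, 138 and 180. Of 8 pluripotent cell markers with solved reads 0 passed 2-fold, and their median was −0.04. Pou5f1, a core pluripotency factor gene, had 832, 758, 1448 and 808, highest in negative-side column 1, while Tfcp2l1 and Tdgf1 could not be solved. Of 3 trophectoderm markers 0 passed 2-fold, and the 1 tested primitive endoderm marker did not. The trophectoderm keratin genes Krt8 and Krt18 had 56.7, 54.0, 133 and 67.6 and 44.7, 39.5, 78.9 and 46.4, both highest in negative-side column 1. Tfap2c had 24.7, 38.2, 7.61 and 6.76. The primitive endoderm genes Dab2, Cubn and Sox7 had at most 16.4 normalised reads in any column.

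The 10 protein-coding genes whose profile over the 4 columns lay nearest to the mean profile of the matrix genes were Ankrd52, Stard8, Arhgap10, Nptn, Cnksr3, Oser1, Arl14epl, Tmem132d, Pknox2 and P2rx7. Likeness was the Euclidean distance between log2 profiles centred on their own mean, over 4 columns, with 7593 candidates of mean at least 30 and the mean of 9 matrix genes. Their distances were 0.572 to 0.746, against a median of 2.03 over all candidates. Of the 9 matrix genes, Col1a1, Col1a2 and Col5a2 lay at 0.705, 0.273 and 0.743 from that mean profile. Dcn, Col5a1, Lox, Fbn1, Col3a1 and Postn lay farther from it than the named genes, at 0.928 to 4.05. Likeness to the mean is thus not likeness to each matrix gene. Of the 10 nearest genes 0 belonged to the lists used here, which hold 1.09% of all candidates. Of the 100 nearest genes 5 did, 3 of them other matrix proteins. Ankrd52 had 21.6, 18.4, 20.0 and 64.7 normalised reads and Nptn 249, 195, 306 and 728. Both were highest in negative-side column 2, which is built in, since the mean profile they were picked to resemble is highest there. The other columns were less even for some of the nearest genes, such as Tmem132d with 20.0, 9.22, 24.7 and 94.7. Ankrd52, Stard8 and Tmem132d passed the limit of 30 on the mean only through negative-side column 2. The same holds for Postn and Col1a1, which are part of the mean profile. With 4 columns such a likeness has few independent points and is a description.

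In blastocysts the matrix genes were nearly without reads. Col1a1, Col1a2, Col3a1, Postn, Lum, Dcn and Lox, 7 of the 10, had 0 reads in all 6 columns, a share to be read against 5.24% of ES cell genes in the same range of ES cell means. A count of 0 allows up to 3 reads in each column. The remaining 3 had reads in some columns. Col5a1 had 0, 8 and 0 positive-side reads against 0, 0 and 6. Col5a2 had 0, 14 and 6 against 78, 0 and 14, and Fbn1 had 22, 16 and 0 against 0, 0 and 2. Each of these genes was absent from at least 2 columns, and for Col5a2 a single column held 78 of 112 reads. Of the blastocyst read counts 96.0% were even numbers, so reads there may not be counted singly, which was not tested.

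The authors' deposited table for blastocysts gave log2 fold changes of −0.07 for Col5a1, −1.71 for Col5a2 and 3.58 for Fbn1 (standard errors 3.79, 1.86 and 2.74). Their adjusted p-values in the authors' deposited table were 0.999, 0.869 and 0.811 (DESeq2 Wald test), where 0.0986% of 15209 tested genes were under 0.05. At the unadjusted threshold the count was also 0, against 6.21% of tested genes in either direction and 3.53% with a negative sign. At this depth no difference between the sides could be detected. Scaled to a sum of 1000000 over the 12914 genes in both tables, the 10 genes reached at most 212 (Fbn1) in ES cells, and the 3 with reads at 0.803 to 4.29 in blastocysts. The materials differ in library method as well as in cells and culture, which cannot be told apart here.

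**Figure D5:**
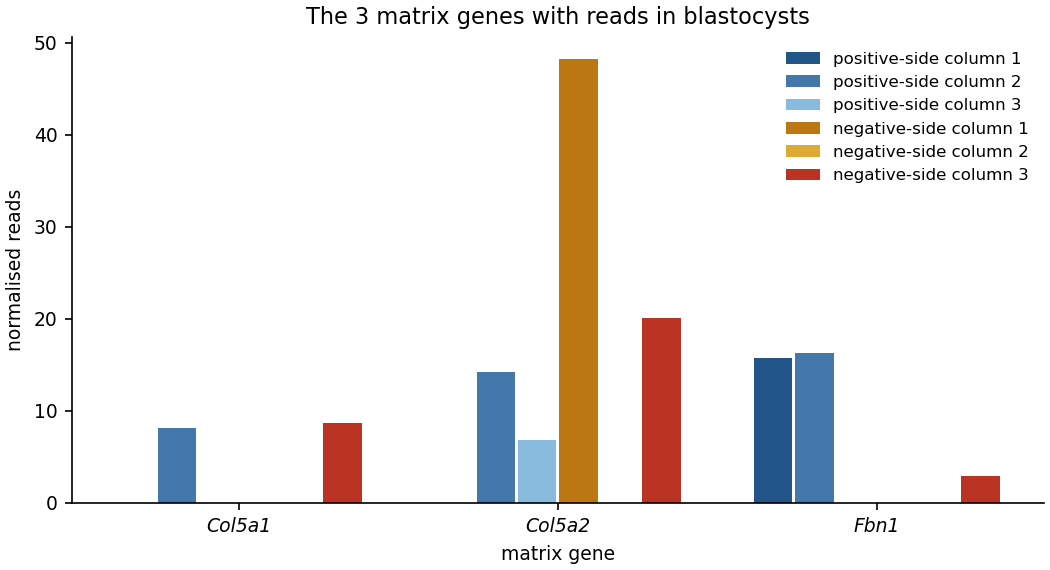
Normalised reads of Col5a1, Col5a2 and Fbn1 in the 6 blastocyst count columns, 1 bar per column, 3 on each side of the comparison and no error bars because each bar is 1 column. Missing bars are columns with 0 reads, and the highest bar is Col5a2 in negative-side column 1 at 48.2.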

How the data were processed

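RNA sequencing results of blastocysts and ES cells were taken from the authors' result tables, 1 per material. Per the submitters' processing notes, STAR 2.4.0b, SAMtools, bedtools, featureCounts, Subread 2.0.1, DESeq2 1.34.0 and GRCm38 were used; filters and the direction of the comparison are not given in the sources used here. Per the file headers, the signal column is the authors' mean of normalised counts over libraries. The deposited log2 columns hold the log2 fold change and its standard error. The deposited score is the Wald statistic of the test, and the deposited p-value columns hold the p-value and its adjusted value.

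Reads per count column were recovered here by solving each mean as whole multiples of fixed steps (Python 3.11.15, numpy 2.4.6, scipy 1.17.1), for ES cell means below 1000 and blastocyst means below 30. All 12862 such ES cell genes had 1 solution at a tolerance of 1.2e-12. A tolerance of 3.0e-12, tried first, left 342 genes with several; the smaller one was chosen after list genes were seen to be unsolved. All 10 matrix genes had 1 solution at both. In simulated ES cell data 2000 of 2000 genes with means below 350, and 723 of 723 above, were recovered exactly. Columns were placed on sides by the correlation of read ratios with deposited fold changes (0.941 for the best ES cell split, 0.269 for the next). Log2 ratios used a pseudocount of 0.5. Intervals and floors cover counting error only, because PCR copies were not marked by molecular identifiers. The labels do not say whether samples were separate animals or lines. The deposited p-values therefore rest on the spread between the count columns behind each table, not on a known number of animals or lines. For ES cells, 4 count columns were recovered, 2 on each side, where the labels list 6 samples. Which samples the ES cell p-values cover is thus not known.

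No model was fitted to the recovered reads. The deposited Wald tests with Benjamini-Hochberg adjustment are the only tests, with an adjusted p-value under 0.05 as the threshold. Gene coordinates are those of the ES cell table, exons and transcript lengths are from GENCODE M21, and promoters are from RefSeq, all on GRCm38. Members and lists were chosen with earlier results of these data known. Besides the members, the text names any list gene with an adjusted p-value under 0.05, the 3 highest means of each list and the 10 nearest profiles. The values of 1 gene that this rule names are not reported here. The 2-fold count, the ranking, the ratios between genes, the transcript length and the limit on printed promoters were chosen after values were seen.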

Additional observations from a re-analysis of the deposited data

How the results depend on the processing

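The count of 0 matrix genes called in ES cells (DESeq2 Wald test) stayed 0 under the other adjusted thresholds and gene filters tried, and became 4 at an unadjusted p-value under 0.05. An adjusted p-value under 0.01 and an absolute log2 fold change of at least 1 are stricter than the main call, so 0 was fixed in advance there. The median of the 10 ES cell log2 fold changes, −0.51 as deposited, was −1.25 from the reads, −1.17 with a pseudocount of 5, −1.21 with reads scaled by their sum and −0.26 centred on pluripotent cell markers. The deposited values are taken to be shrunken, which would make the first 3 larger by construction. Leaving out each count column in turn gave −1.90 to −0.13, the last without negative-side column 2, and 5 to 10 genes lower on the positive side. All 10 genes stayed highest in negative-side column 2 under 2 other scalings, chosen after seeing the data. The ratios of single genes changed sign without negative-side column 2 for Col3a1 (−3.86 to 0.15 over the columns left out), Col5a2 (−1.63 to 0.36), Postn (−7.01 to 0.23), Dcn (−1.24 to 0.011) and Fbn1 (−0.58 to 0.16). In blastocysts the median of 3 tested genes, −0.07, ranged from −2.57 to 2.68 without 1 column and was 0.13 centred on pluripotent cell markers. Col5a1 there ranged from −2.76 to 2.68. No paired analysis was possible because the count columns carry no replicate numbers. Depth limits Postn most, with 4 reads outside negative-side column 2 and a counting interval of 37.0 to 361, and the blastocyst reads of these genes are too few to show a difference.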
